A study of Mus musculus with 17 samples.

Results

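The genes described here are 27 genes of cholesterol synthesis, storage and their SREBP2 control, taken as a list of names from a table of 55401 mouse gene identifiers. The rule uses no measured value, but the list was drawn up with earlier results of these data known. They were read in 17 RNA-seq libraries of bone marrow-derived macrophages, which are cells grown from mouse marrow. The C57BL/6J cells comprised 3 control libraries, 3 libraries of cells in medium conditioned by the mouse melanoma line B16F10, and 3 with KCl or 2 with NaCl added to that medium. Per the labels the treatment lasted 6 hours and the salts stood at 40 mM at the end, while what the control cells received is not given. The other 6 libraries were from macrophages given conditioned medium and KCl labelled as isotonic. Of these, 3 were of the strain Kcnj2f/f, whose label names the floxed channel gene and no Cre, and 3 were of Lyz2-Cre-Kcnj2f/f, in which the Lyz2 promoter drives Cre in myeloid cells, called the knockout here. The labels state neither how the medium was made isotonic nor whether each replicate was its own animal or culture. The p-values below thus rest on sample-to-sample spread alone, and that spread may be technical.

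Cells build cholesterol from acetyl-CoA through mevalonate, the isoprenoids, squalene and lanosterol. The transcription factor SREBP2, encoded by Srebf2, starts as a membrane protein of the endoplasmic reticulum. When sterols run low, SCAP carries it to the Golgi, where proteases free the part that enters the nucleus and activates the synthesis genes, Srebf2 itself and Insig1. INSIG proteins hold SCAP and SREBP2 in the endoplasmic reticulum when sterols are plentiful. Macrophages also take up much cholesterol from lipoproteins and dead cells, and store it as esters made by SOAT1 or export it.

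Promoters of 3 members are shown for the known binding motifs of the pathway: Hmgcs1 and Srebf2 hold a sterol regulatory element, and Mvk holds 5 copies of CCAAT, the most of any member's first listed window, the motif of the SREBP partner NF-Y. By GENCODE M21 (GRCm38), Hmgcs1 lies at chr13:119690379-119708260, Srebf2 at chr15:82147181-82205379 and Mvk at chr5:114444269-114460591, all on the plus strand. The sequences are from RefSeq on GRCm38.p6, 5′ to 3′ on the gene's strand, all before the RefSeq transcript start. Capitals mark the motifs searched, TCACNCCAC, ATCACNCCA and CCAAT, each on both strands, so that ATTGG is CCAAT on the opposite strand. The first pair of motifs overlap in their core.
Hmgcs1, chr13:119690164-119690273, plus strand, 187 to 78 bases before the start: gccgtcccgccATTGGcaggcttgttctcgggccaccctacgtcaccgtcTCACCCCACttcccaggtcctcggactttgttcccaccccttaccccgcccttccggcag
Srebf2, chr15:82147056-82147165, plus strand, 213 to 104 bases before the start: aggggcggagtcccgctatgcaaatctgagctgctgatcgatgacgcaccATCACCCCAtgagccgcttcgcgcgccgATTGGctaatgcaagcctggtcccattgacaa
Mvk, chr5:114444089-114444268, plus strand, 180 to 1 bases before the start: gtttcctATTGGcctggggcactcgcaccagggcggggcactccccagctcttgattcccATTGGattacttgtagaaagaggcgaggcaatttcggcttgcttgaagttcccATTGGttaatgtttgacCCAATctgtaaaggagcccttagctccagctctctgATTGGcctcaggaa
Promoter windows of 250 bases before the start were found for 23 of the 27 genes; Fdps, Fdft1, Sqle and Stard4 had no entry. CCAAT occurred in any listed window of 21 of the 23 (91.3%), against 37.5% of 27025 genes with a window and 40.5% of 9927 protein-coding genes tested here. The exceptions were Scap and Acat2. TCACNCCAC or ATCACNCCA occurred in 2 of the 23 (8.7%), Hmgcs1 and Srebf2, against 1.81% of all genes. A match describes these letters only.

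Library totals ran from 13503869 to 19391623 counts, and all 27 genes passed the low-count filter in every fit. Levels are CPM, counts scaled to library size and by TMM, a factor that centres most genes. The libraries differed in a length slope, the slope of log count on log exon length, given relative to the mean library. Exon length here is merged over all annotated transcripts of a gene. Control libraries had slopes of 0.06 to 0.12, those in conditioned medium 0.04 to 0.09, and those with NaCl 0.06 to 0.11. With KCl it was −0.07, −0.10 and −0.01 in libraries 1 to 3, in floxed cells 0.10, −0.15 and −0.09, and in knockout cells −0.14 to −0.03. KCl and conditioned medium alone did not overlap in this slope, so it cannot be told apart from KCl. The macrophage markers summed to 25353 to 29245 CPM in all groups but the knockout (12400 to 13566 CPM), where Lyz2, the gene that carries the Cre driver, stood at 7167 to 8372 CPM against 19802 to 24444 CPM in floxed cells. Of 7 melanoma markers Tyr and Dct were at 0 in all 17 libraries, and most of the summed 67.3 to 237 CPM was Mitf, a gene active in macrophages too. T, NK and B cell markers summed to at most 0.801 CPM, neutrophil markers to at most 30.1 CPM and erythroid and mast cell markers to at most 9.85 CPM. Dendritic cell markers summed to 17.6 to 24.8 CPM with KCl, 3.16 to 5.47 CPM in conditioned medium alone and 8.29 to 9.69 CPM with NaCl. Most of the KCl sum was 1 gene, Xcr1, at 14.4 to 20.9 CPM with KCl and 0.38 to 2.09 CPM in conditioned medium alone. Every other marker of that list reached at most 1.69 CPM with KCl. Stromal collagens were present: the sum of 7 stromal markers was 573 to 707 CPM for control libraries, 504 to 558 CPM for conditioned medium alone, 310 to 481 CPM for KCl, 497 to 552 CPM for NaCl, 254 to 506 CPM for floxed and 179 to 246 CPM for knockout libraries. Their part in the results below was not tested. In such bulk samples fewer cells of a type and less RNA per cell cannot be told apart.

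Summed over the 27 genes, control libraries reached 1575 to 1588 CPM, and libraries in conditioned medium 2567 to 2668 CPM. It was 2617 to 3149 CPM with KCl, 2493 to 2494 CPM with NaCl, 2526 to 2962 CPM in floxed and 2571 to 2811 CPM in knockout cells. As a share of all counts, which needs no scaling factor, control libraries gave 0.207% to 0.208%, conditioned medium alone 0.268% to 0.276%, and the other 4 groups 0.238% to 0.265%. Control thus lay below every treated library on both scales, while KCl lay partly above conditioned medium alone in CPM and below it as a share. Per kilobase of this merged exon length, Cyp51 (60.9 CPM per kb), Hmgcs1 (52.9) and Insig1 (52.1) had the highest mean levels in conditioned medium. Tm7sf2 (2.06), Dhcr7 (2.09) and Lss (3.37) had the lowest. The merged length can exceed that of the transcript expressed, so genes can be compared only roughly on this scale. In control the cholesterol acyltransferase gene Soat1 led at 41.6 CPM per kb, ahead of Cyp51 at 25.5.

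**Figure D1:**
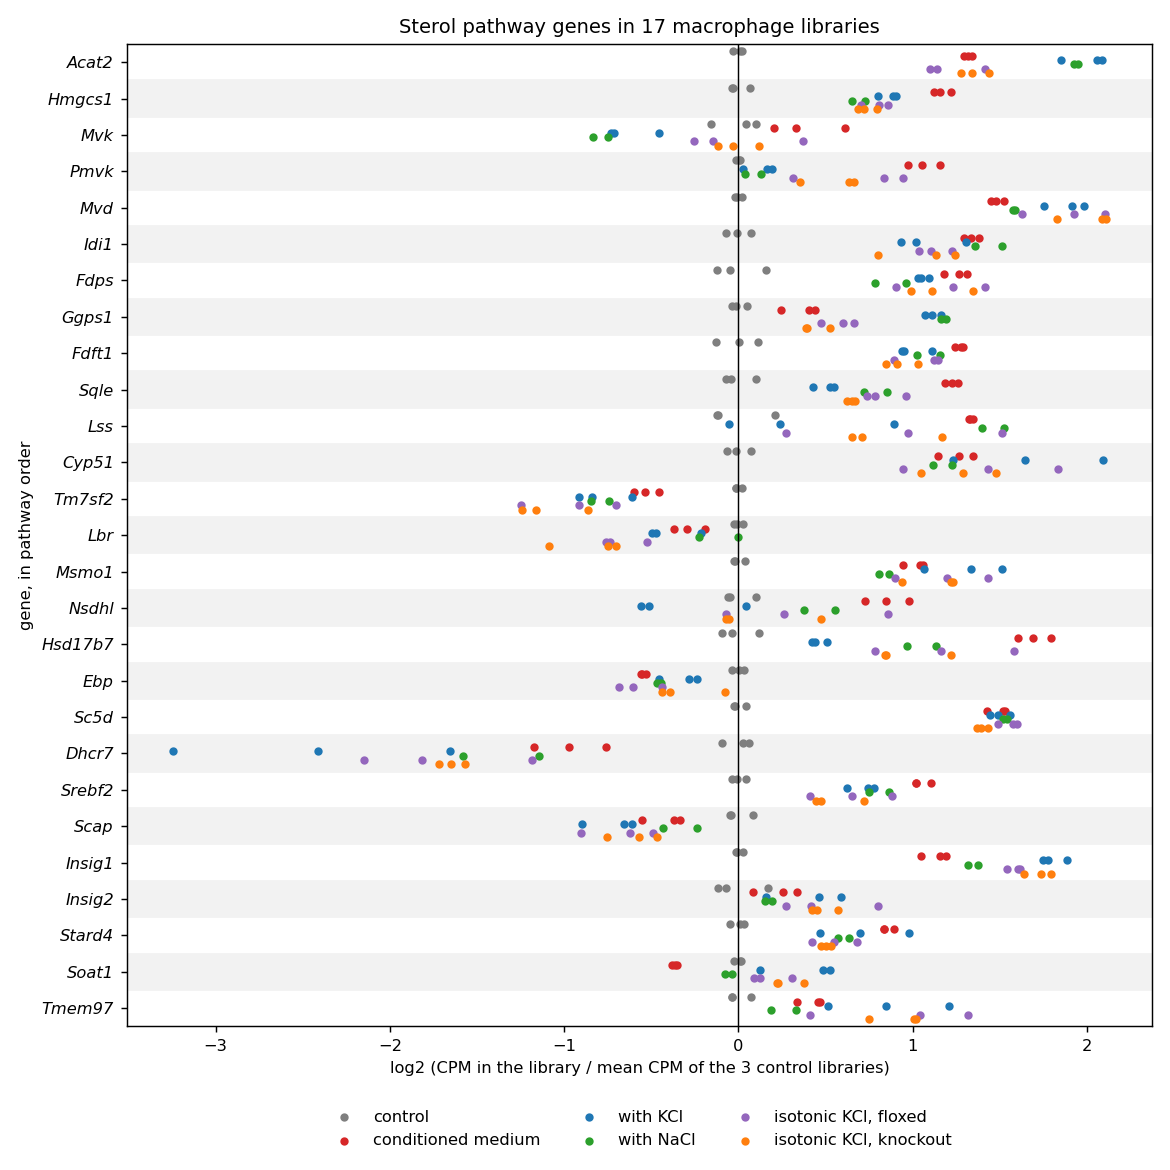
Level of each of the 27 genes in each of the 17 libraries (points, coloured by group) as log2 of its CPM over the mean of the 3 control libraries, with genes in pathway order from top to bottom. Most genes lie right of 0 in conditioned medium, while Tm7sf2, Lbr, Ebp, Dhcr7, Scap and Soat1 lie left of it, and Dhcr7 reaches the lowest values with KCl.

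The first comparison, conditioned medium with control, sets cells in melanoma-conditioned medium beside control cells whose own medium is not given. The enzymes from acetyl-CoA to lanosterol rose together: all 11 genes of the mevalonate, isoprenoid and squalene steps were higher, with log2 fold changes of 0.36 to 1.48. The later steps from lanosterol to cholesterol split, with 5 genes higher and 4 lower. In all 20 of 27 genes rose, 6 fell and 1 did not pass an adjusted p of 0.05 (edgeR quasi-likelihood test, Benjamini-Hochberg over all 14519 genes tested). Among all genes tested 53.5% were called, 27.2% as higher and 26.4% as lower. The median log2 fold change of the 27 was 1.04, against −0.04 over all genes, and the libraries of both groups did not overlap for any of the 26 called genes. How many of all genes tested did not overlap was not counted, so this describes the listed genes only.

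Among the regulators, Srebf2 stood at 110.5, 113 and 117 CPM in control and at 229, 229.6 and 244 CPM in conditioned medium. The groups lie far apart, and the log2 fold change was 1.04 (SE 0.07, n = 3 and 3, edgeR adjusted p = 4.9e-08). Insig1, an SREBP2 target whose protein restrains SREBP2, stood at 74.7, 72.9 and 72.6 CPM in control and at 164, 168 and 152 CPM in conditioned medium (log2 fold change 1.13, SE 0.07, edgeR adjusted p = 1.8e-08). Scap, the escort of SREBP2, moved the other way, from 44.2, 44.5 and 48.5 CPM to 31.2, 36.3 and 35.5 CPM (−0.42, SE 0.10, edgeR adjusted p = 0.0029). Insig2, the second restraining protein, was the only member not called. Its libraries overlapped, with 32.0, 37.8 and 30.9 CPM in control and 42.4, 40.0 and 35.5 CPM in conditioned medium (0.22, 95% interval −0.03 to 0.47).

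At the head of the pathway, the log2 fold changes were 1.31 for Acat2, which joins acetyl-CoA units, 1.16 for the HMG-CoA synthase Hmgcs1, 1.06 for the phosphomevalonate kinase Pmvk and 0.38 for the mevalonate kinase Mvk. Mvd, the decarboxylase that closes the mevalonate steps, was among the 3 largest changes. It stood at 28.72, 27.97 and 28.17 CPM in control and at 81.5, 77.2 and 78.9 CPM in conditioned medium, an increase with little spread inside either group (1.48, SE 0.08, edgeR adjusted p = 2.2e-09). The isomerase Idi1 (1.33) and the farnesyl diphosphate synthase Fdps (1.25) rose by more than Ggps1 (0.36), which makes geranylgeranyl diphosphate for protein prenylation, although these differences between genes were not tested. Squalene synthase Fdft1 (1.26), squalene epoxidase Sqle (1.22) and lanosterol synthase Lss (1.32) changed by like amounts.

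Past lanosterol, Hsd17b7, a reductase of the demethylation complex, had the largest fold change of all members. It stood at 12.11, 12.59 and 14.04 CPM in control and at 39.4, 41.6 and 44.8 CPM in conditioned medium, with every treated library well above every control (1.69, SE 0.10, edgeR adjusted p = 5e-09). Sc5d, the lathosterol desaturase, rose from 52.1, 52.2 and 54.6 CPM to 152, 153 and 142 CPM (1.48, SE 0.07, edgeR adjusted p = 5.7e-10). The lanosterol demethylase Cyp51 (1.25), the methyl oxidase Msmo1 (1.01) and Nsdhl (0.85), which acts beside Hsd17b7, also rose. The 4 that fell were Dhcr7 (−0.96), the last reductase before cholesterol, the isomerase Ebp (−0.55), and both sterol C14 reductases, Tm7sf2 (−0.53) and Lbr (−0.29), the latter also a protein of the nuclear envelope. Dhcr7 stood at 24.0, 22.2 and 24.7 CPM in control and at 10.49, 12.05 and 13.96 CPM in conditioned medium, with no overlap.

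Of the transport and storage genes, the sterol carrier Stard4 (0.85) and the sigma-2 receptor Tmem97 (0.41) rose. Soat1, the enzyme that esterifies cholesterol for storage, fell (−0.37, SE 0.09, edgeR adjusted p = 0.0038), from 411, 411 and 401 CPM to 320.0, 317 and 313 CPM. Calls on 3 of the smaller changes were lost on leaving out single libraries. That on Mvk was lost without control 1, control 2 or conditioned medium 1 (adjusted p 0.0533 to 0.13), that on Tmem97 without 4 of the 6 libraries (control 1 or 3, conditioned medium 1 or 2, 0.0585 to 0.0651), and that on Lbr without any but conditioned medium 2 (0.0565 to 0.104). With total-count scaling the median log2 fold change over all genes moves by −0.34. This ends the calls on Mvk (0.04), Ggps1 (0.02) and Tmem97 (0.08), leaving 17 higher and 6 lower. Reads of Fdft1 and of Tm7sf2 may be shared with overlapping genes. An exon of Fdft1 overlaps 774 bases of Ctsb on the opposite strand, which had 2808356 counts against 20871, and the strand setting of the counting is not given. Ctsb moved the other way, by −0.15. Tm7sf2 overlaps Vps51 by 532 bases on the same strand, where no strand setting separates the reads. Vps51 had a log2 fold change of 0.10 that did not pass. Genes elsewhere with like sequence may share reads too. Fdps is 98.9% identical to Gm3571 over 1062 bases, with 23374 counts against 2474. Idi1 is 100% identical to Gm13502 over 684 bases, with 7893 counts against 432. How reads were divided among these genes is not known.

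**Figure D2:**
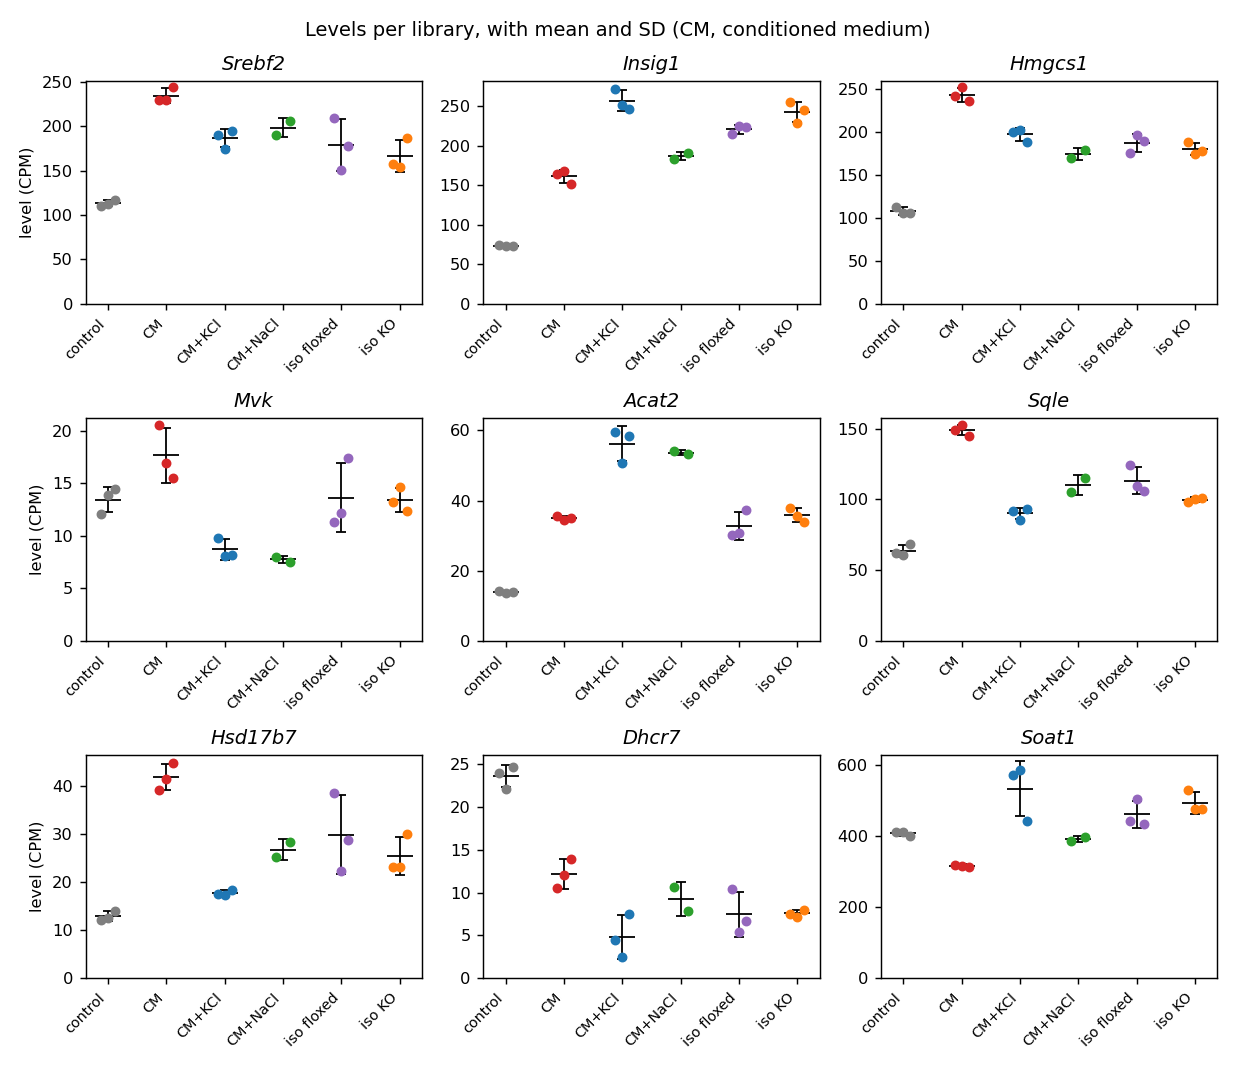
CPM of 9 genes in each library (points) of the 6 groups, with the group mean and SD (bars) and axes starting at 0. Srebf2, Hmgcs1, Sqle and Hsd17b7 are highest in conditioned medium alone, Insig1 and Soat1 have their highest means with KCl, and Dhcr7 is highest in control.

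The comparison of conditioned medium with and without KCl covers all that the salt brings, potassium, chloride and osmolality together. The genes moved apart: Hsd17b7, Nsdhl, Dhcr7, Mvk, Pmvk, Lss and Sqle fell by 0.73 to 1.305 on the log2 scale, while Soat1, Ggps1, Acat2 and Insig1 rose by 0.66 to 0.74. Of the 27 genes 9 rose, 12 fell and 6 did not pass, where 53.9% of all genes were called (26.6% higher, 27.4% lower). The median of the members was −0.21, against −0.01 over all genes. Total-count scaling gave 4 higher and 17 lower in place of 9 and 12, with a move of −0.21 in the median over all genes. Of all called genes 32.6% were then higher, in place of 49.3%. The same share went from 50.8% to 24.9% for conditioned medium against control and from 48.0% to 37.0% for NaCl.

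The regulators moved apart. Srebf2 was lower, at 190.1, 175 and 195 CPM with KCl against 229 to 244 CPM without (−0.34, SE 0.07, edgeR adjusted p = 0.0016). Insig1 was higher, at 272, 252 and 246 CPM with KCl against 152 to 168 CPM without (0.66, SE 0.07, edgeR adjusted p = 6.1e-06), and its groups lie far apart. Scap stood at 29.01, 24.60 and 30.005 CPM, just under the 31.2 to 36.3 CPM without KCl (−0.31, SE 0.10, edgeR adjusted p = 0.022). The call on Scap was lost without conditioned medium 2 (0.081) or 3 (0.0667) or without KCl 2 (0.0722). For Insig2 the KCl libraries, at 46.3, 50.5 and 37.4 CPM, overlapped those without, and the call was not made (0.17, 95% interval −0.08 to 0.43), except without KCl 3 (0.0175).

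Of the mevalonate genes, 3 fell and 2 rose. Mvk stood at 20.5, 16.9 and 15.5 CPM in conditioned medium and at 9.80, 8.11 and 8.19 CPM with KCl, below even the control libraries (12.1 to 14.4 CPM). Its log2 fold change was −1.02 (SE 0.14, edgeR adjusted p = 3.8e-05), and that of Pmvk, the next kinase, was −0.94. Hmgcs1 fell by 0.31. Acat2 stood at 35.5, 34.4 and 35.0 CPM without KCl and at 59.6, 50.6 and 58.4 CPM with it (0.68, SE 0.08, edgeR adjusted p = 1.9e-05), and Mvd rose by 0.39. The Acat2 transcript is 98.7% identical to the opposite strand of Tcp1 over 445 bases and 97.7% identical to Acat3 over 1477 bases. Tcp1 had 73355 counts and Acat3 120, against 10168 for Acat2, and how reads were divided among them is not known.

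Among the isoprenoid genes Ggps1 rose (0.74). It overlaps Arid4b by 257 bases on the opposite strand, with 9593 counts against 8851 for Arid4b, and without a known strand setting their reads cannot be told apart there. Arid4b also rose, by 0.78 with KCl and 0.66 with NaCl, while its value in conditioned medium against control was −0.15 and did not pass. Idi1 passed narrowly as lower (−0.26, adjusted p = 0.048), a call lost without any library but KCl 2 (0.07 to 0.181). Fdps did not pass (−0.21, adjusted p = 0.059; 0.0486 without KCl 3). All 3 squalene and lanosterol genes fell. Sqle stood at 149, 153 and 145 CPM without KCl and at 91.6, 85.7 and 93.2 CPM with it (−0.73), while Fdft1 fell by 0.28 and Ctsb, which overlaps it, rose by 0.33. Lss stood at 36.1, 36.6 and 36.3 CPM without KCl and at 17.1, 13.9 and 26.8 CPM with it (−0.91, SE 0.19, edgeR adjusted p = 0.0012). The KCl libraries of Lss follow their length slopes, the highest level being in KCl 3, whose slope is nearest to that of conditioned medium.

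The 3 largest changes with KCl were past lanosterol. Dhcr7 stood at 4.432, 2.496 and 7.501 CPM with KCl, against 10.49 to 13.96 CPM without (−1.305, SE 0.27, edgeR adjusted p = 0.0013). The KCl libraries of Dhcr7 spread widely, in the order of their length slopes, and the cause of that spread was not tested. Hsd17b7 fell to 17.5, 17.3 and 18.4 CPM from 39.4 to 44.8 CPM, a tight change in all 3 libraries (−1.25, SE 0.10, edgeR adjusted p = 3.2e-07). Nsdhl fell from 25.0, 23.0 and 27.4 CPM to 9.74, 9.45 and 14.3 CPM (−1.17, SE 0.15, edgeR adjusted p = 2.2e-05). Others of the same stretch rose: Cyp51 (0.43, adjusted p = 0.035), Msmo1 (0.29, adjusted p = 0.021) and Ebp (0.22, adjusted p = 0.042). Sc5d stayed near its level without KCl (−0.00, 95% interval −0.15 to 0.14), and Tm7sf2 (−0.26) and Lbr (−0.11) did not pass (Tm7sf2 at 0.036 without KCl 3).

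Calls on the 3 genes that rose in this stretch were lost on leaving out any of several single libraries. That on Cyp51 was lost without conditioned medium 2 or 3 or KCl 1 or 2 (0.0571 to 0.13), that on Msmo1 without the same libraries (0.0536 to 0.0903), and that on Ebp without any but KCl 2 (0.089 to 0.101). Soat1 stood at 572, 587 and 444 CPM with KCl against 313 to 320.0 CPM without (0.74, SE 0.09, edgeR adjusted p = 1.9e-05). Every KCl library lay above every control library as well in CPM (401 to 411 CPM). That order rests on the TMM factors, 1.31 to 1.32 in control and 0.83 to 0.94 with KCl. On total counts without these factors, every KCl library lay below every control library for Soat1. Tmem97 rose by 0.45, a call lost without conditioned medium 3 (0.0558), and Stard4 did not pass (−0.14). Stard4 passed as lower without KCl 2 (−0.27, 0.0114), with total-count scaling (−0.36, 0.00354) and with the length slope as covariate (−0.49, 0.0172).

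Adding the length slope to the fit as a covariate left 4 genes higher and 8 lower with KCl. Calls on Mvd (0.24), Idi1 (−0.31), Lss (−0.14), Ebp (0.36), Dhcr7 (−0.56), Scap (−0.07) and Srebf2 (−0.13) were then lost, and the values for Cyp51 (−0.33, adjusted p = 0.134), Msmo1 (−0.09, 0.62) and Tmem97 (−0.16, 0.51) lay below 0 and did not pass. In the highest to lowest order of slope, KCl 3, 1 and 2, Cyp51 stood at 265, 352 and 479.7 CPM and Tmem97 at 44.6, 56.3 and 72.3 CPM. The floxed libraries in the same order (1, 3 and 2) stood at 217, 304 and 402 CPM for Cyp51 and at 41.5, 64.3 and 78.1 CPM for Tmem97. Insig1, Acat2, Soat1, Ggps1, Hmgcs1, Mvk, Pmvk, Fdft1, Sqle, Nsdhl and Hsd17b7 kept their calls and directions with the covariate, and Stard4 became the other gene called as lower.

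**Figure D3:**
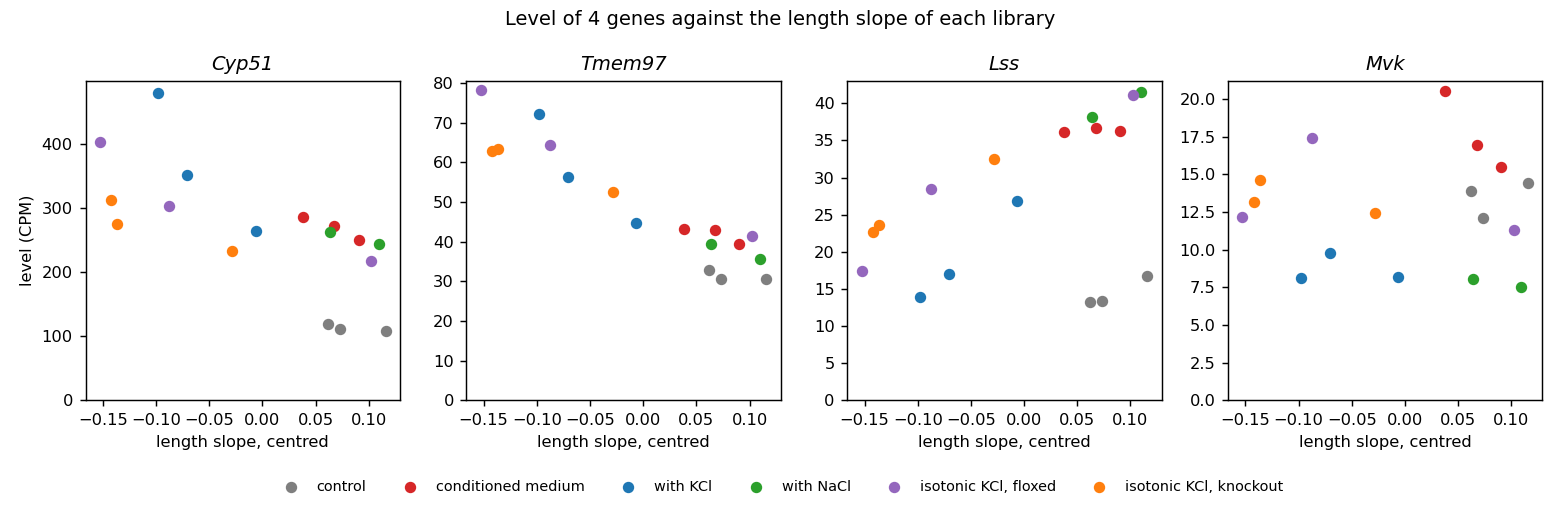
CPM of Cyp51, Tmem97, Lss and Mvk in each of the 17 libraries (points, coloured by group) against the centred slope of log count on log exon length in that library. Within the KCl and the floxed groups Cyp51 and Tmem97 are lower and Lss is higher where the slope is higher, while Mvk shows no such order.

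The same medium with and without NaCl shows the response to another salt at an equal concentration. Fewer genes passed, with 3 higher, 7 lower and 17 not past, where 28.7% of all genes were called (13.7% higher, 14.9% lower). The mevalonate kinase genes Mvk and Pmvk had the largest changes, and Ggps1, Acat2 and Soat1 were the genes that rose. The median log2 fold change was −0.15, against −0.01 over all genes. With only the conditioned medium and NaCl libraries in the fit, 4 were higher and 12 lower.

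Mvk had the largest change, at 8.02 and 7.55 CPM with NaCl against 15.5 to 20.5 CPM without (−1.17, SE 0.16, n = 2 and 3, edgeR adjusted p = 0.0001). Pmvk stood at 36.8, 34.3 and 32.4 CPM without NaCl and at 18.07 and 16.98 CPM with it (−0.97, SE 0.10, edgeR adjusted p = 1.6e-05), just above the control libraries at 16.4 to 16.6 CPM. On total counts Pmvk with NaCl lay below control, since the TMM factors were 0.98 and 1.00 with NaCl and 1.31 to 1.32 in control. Ggps1 stood at 26.1, 29.1 and 29.8 CPM without NaCl and at 49.3 and 50.2 CPM with it (0.82, SE 0.09, edgeR adjusted p = 2e-05), well apart. Acat2 rose to 54.1 and 53.2 CPM (0.63, SE 0.09, edgeR adjusted p = 0.00023).

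Hsd17b7 (−0.64), Hmgcs1 (−0.47), Sqle (−0.43), Fdps (−0.37) and Srebf2 (−0.23) fell, and Soat1 rose (0.31). The call on Sqle was lost without NaCl 1 (0.0514) and that on Fdps without NaCl 2 (0.155). Those on Soat1 (0.076 to 0.19) and Srebf2 (0.0856 to 0.336) were lost without any 1 of the 5 libraries. Srebf2 stood at 191 and 206 CPM and Scap, not called, at 38.8 and 33.9 CPM. Insig1, at 183 and 190.3 CPM, lay above the 152 to 168 CPM of conditioned medium alone without passing (0.22, 95% interval 0.05 to 0.39, adjusted p = 0.057), though it passed with RLE scaling, with DESeq2 and in 3 other settings. Insig2 overlapped at 37.4 and 38.4 CPM.

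Set side by side, 6 genes that rose in conditioned medium fell with each salt: Hmgcs1, Mvk, Pmvk, Sqle, Hsd17b7 and Srebf2. Acat2 and Ggps1 rose in all 3 comparisons, and Soat1 fell in conditioned medium and rose with each salt. No gene was called in opposite directions by the salts. These comparisons share the conditioned medium libraries, and Soat1 and Srebf2 rest on the weak calls with NaCl given above. The call on Sqle with NaCl was lost without NaCl 1. In conditioned medium the call on Mvk was lost without any of 3 of the 6 libraries. Those on Mvk (0.04) and Ggps1 (0.02) were lost there with total-count scaling. Reads of Ggps1 may be shared with Arid4b, which also rose with each salt. The share of all genes with each of these patterns was not counted, so the patterns describe the listed genes only.

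**Figure D4:**
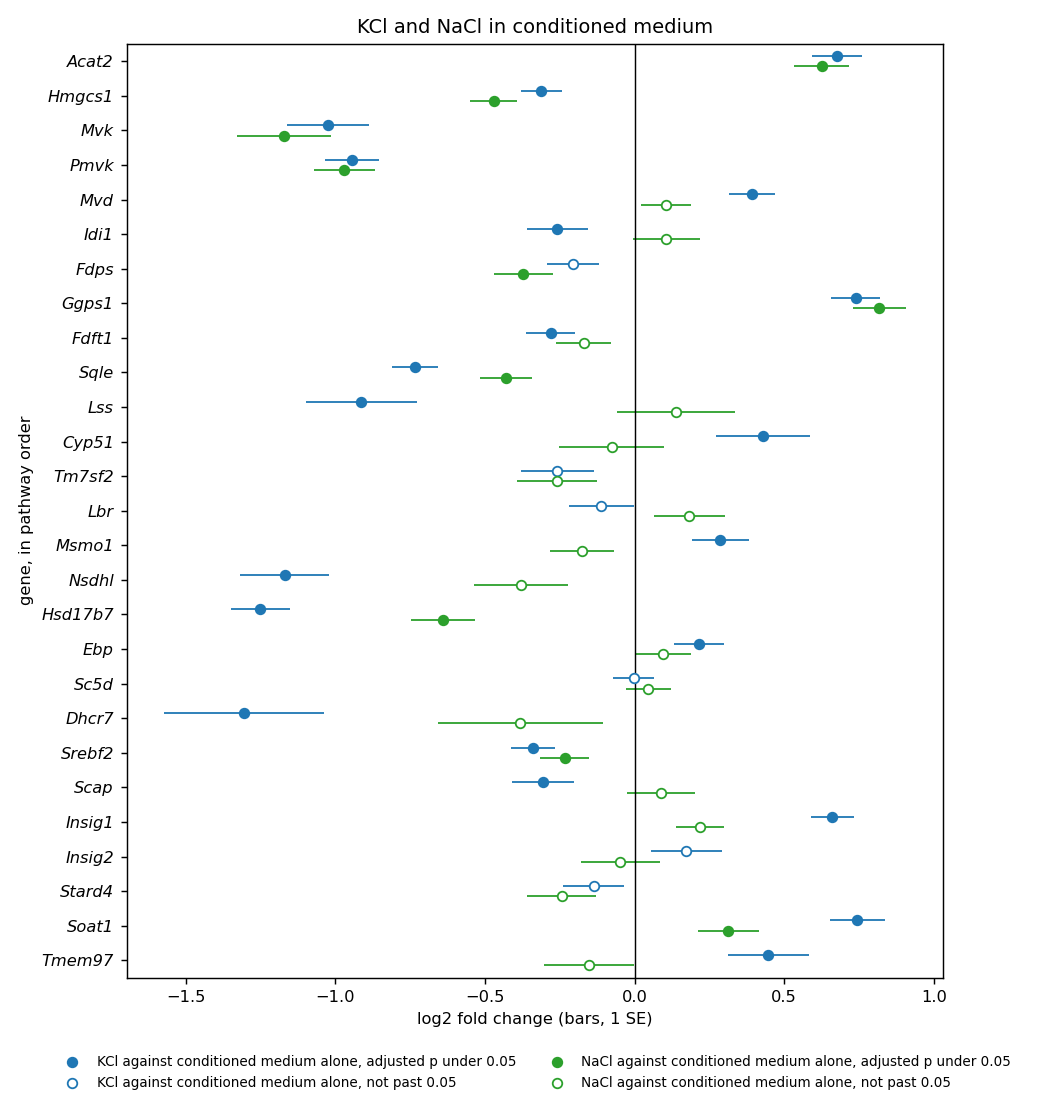
Log2 fold change of each gene with KCl and with NaCl, each against conditioned medium alone, with bars of 1 SE and filled points where the adjusted p was under 0.05. The points of both salts lie close together for Mvk, Pmvk, Acat2 and Ggps1, and apart for Lss, Nsdhl, Hsd17b7 and Tmem97.

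KCl against NaCl, both in conditioned medium, tests the difference between the salts itself. Here 6 genes were higher and 7 lower with KCl and 14 did not pass, where 31.6% of all genes were called (15.4% higher, 16.2% lower). Lss, Dhcr7, Nsdhl, Hsd17b7, Scap, Idi1 and Sqle were lower with KCl, and Tmem97, Cyp51, Msmo1, Insig1, Soat1 and Mvd were higher. Total-count scaling gave 4 higher and 9 lower, and the share of all called genes that were higher went from 48.6% to 30.1%. The median was 0.03, against −0.04 over all genes.

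Lss had the largest difference, at 17.1, 13.9 and 26.8 CPM with KCl against 38.1 and 41.6 CPM with NaCl (−1.05, SE 0.20, n = 3 and 2, edgeR adjusted p = 0.0037). Dhcr7 stood at 4.432, 2.496 and 7.501 CPM against 10.7 and 7.89 CPM, groups that nearly touch (−0.92, SE 0.30, edgeR adjusted p = 0.034). That call was lost without KCl 1 (0.0948), NaCl 1 (0.221) or NaCl 2 (0.0787). Nsdhl stood at 9.74, 9.45 and 14.3 CPM against 20.4 and 18.1 CPM (−0.79, SE 0.16, edgeR adjusted p = 0.0045), and Hsd17b7 at 17.3 to 18.4 CPM against 25.3 and 28.3 CPM (−0.61, SE 0.11, edgeR adjusted p = 0.0023). Insig1 was higher with KCl, at 246 to 272 CPM against 183 and 190.3 CPM (0.44, SE 0.08, edgeR adjusted p = 0.0026).

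For the mevalonate kinases no difference between the salts was called: it was 0.15 for Mvk (95% interval −0.20 to 0.49) and 0.03 for Pmvk (−0.20 to 0.25). For Acat2 it was 0.05 (−0.15 to 0.25), for Ggps1 −0.08 (−0.27 to 0.11), for Srebf2 −0.10 (−0.28 to 0.07) and for Sc5d −0.05 (−0.21 to 0.11). Only the calls on Lss, Nsdhl, Hsd17b7 and Insig1 held without each of the 5 libraries in turn. The number called was 4 without NaCl 2 and 7 without NaCl 1, and 0 with only these groups in the fit (11 at an unadjusted p under 0.05) or with the length slope as a covariate (2 at an unadjusted p under 0.05). With only these groups the values hardly moved, such as −1.05 for Lss and −0.60 for Hsd17b7. With the covariate they shrank, to −0.13 for Lss, −0.07 for Dhcr7, −0.27 for Nsdhl and −0.26 for Hsd17b7, while Insig1 was at 0.37. The slopes, −0.10 to −0.01 with KCl and 0.06 to 0.11 with NaCl, did not overlap.

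The knockout of Kcnj2, the gene of the potassium channel Kir2.1, was compared with floxed cells, both in conditioned medium with isotonic KCl. Kcnj2 itself stood at 173, 139 and 147 CPM in floxed and at 19.7, 24.4 and 29.4 CPM in knockout cells (−2.64, SE 0.19, edgeR adjusted p = 0.015). None of the 27 genes was called by edgeR, and none had an unadjusted p under 0.05. DESeq2 called 0 as well. Across all 12782 genes tested, 2 were called by edgeR (0.0156%): Lyz1, a lysozyme gene, as higher (0.00782%) and Kcnj2 as lower (0.00782%). The 95% intervals of all 27 lay within a 2-fold change either way, from −0.91 to 0.64 on the log2 scale, and those of 18 within 1.5-fold.

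Srebf2 stood at 209, 150.5 and 178 CPM in floxed and at 158, 154 and 187 CPM in knockout cells, Scap at 32.6, 24.4 and 29.7 against 27.1, 30.8 and 33.1 CPM, and Insig2 at 40.5, 58.4 and 44.8 against 49.89, 45.83 and 45.02 CPM. All 3 overlapped. Insig1 stood at 214, 225 and 223 CPM in floxed and at 255, 228 and 245 CPM in knockout cells, which do not overlap, with a difference that did not pass (0.14, 95% interval −0.11 to 0.39). The same held for Sqle (−0.18, −0.43 to 0.08), Sc5d (−0.15, −0.39 to 0.09) and Ebp (0.28, −0.07 to 0.64). The widest intervals were those of Nsdhl (−0.91 to 0.40) and Lss (−0.88 to 0.61), whose floxed libraries spread from 13.2 to 25.2 CPM and from 17.4 to 41.1 CPM. With the length slope as a covariate 1 gene was called, Cyp51 (−0.31, adjusted p = 0.00148).

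**Figure D5:**
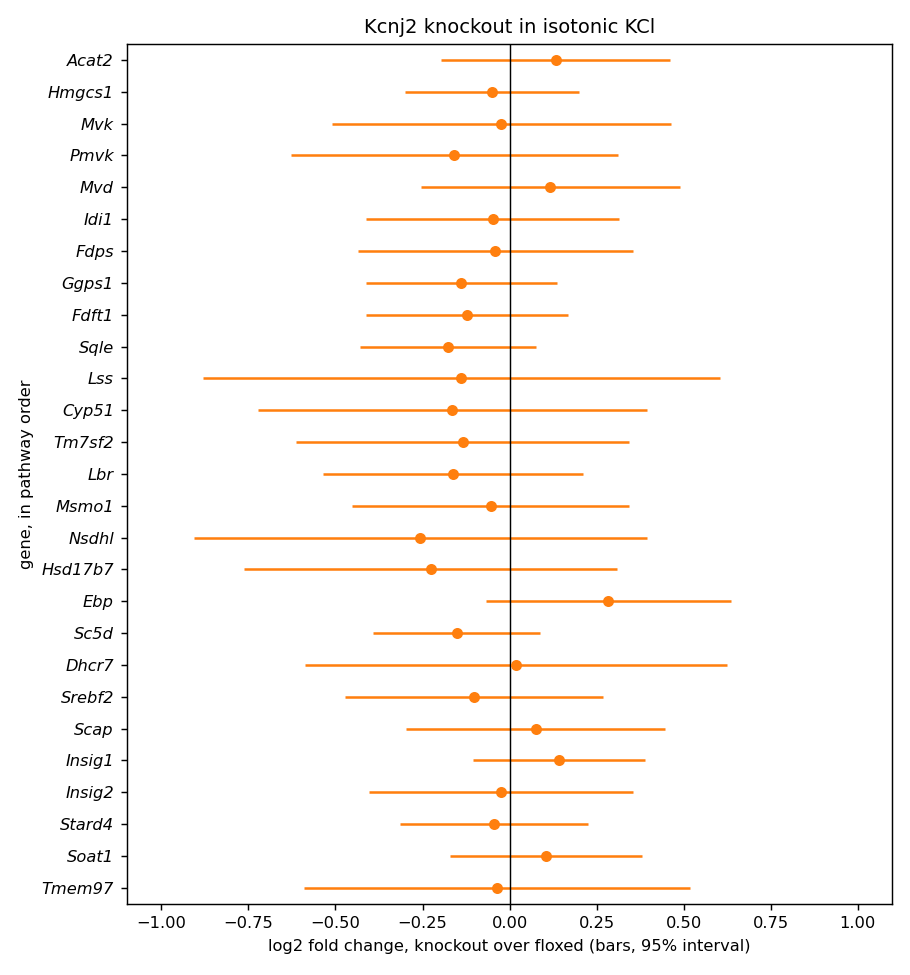
Log2 fold change of each gene in knockout over floxed cells (points) with its 95% interval (bars), genes in pathway order. All bars cross 0, and they end between −0.91 and 0.64.

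Floxed cells in isotonic KCl were also set beside the C57BL/6J groups, in a fit of all 17 libraries. Strain, genotype and treatment differ together here and cannot be told apart. Against conditioned medium alone 3 genes were higher and 4 lower, where 15.3% of all genes were called (8.2% higher, 7.09% lower), and total-count scaling gave 2 and 10. Soat1 stood at 444, 506 and 434 CPM against 313 to 320.0 CPM (0.54, SE 0.10, edgeR adjusted p = 0.0021), Insig1 at 214 to 225 CPM against 152 to 168 CPM (0.45, SE 0.07, edgeR adjusted p = 0.00081), and Mvd at 87.3, 122 and 108 CPM against 77.2 to 81.5 CPM (0.41, SE 0.11, edgeR adjusted p = 0.022). Hmgcs1 (−0.38), Sqle (−0.40), Srebf2 (−0.39) and Lbr (−0.38) were lower. The calls on Mvd, Srebf2 and Lbr were lost on leaving out any conditioned medium library, floxed 2 or floxed 3 (0.0528 to 0.0932, 0.0603 to 0.12 and 0.0823 to 0.159). The number called was 4 without any 1 of the conditioned medium libraries and 14 without floxed 1, the floxed library with a slope of 0.10.

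KCl in C57BL/6J cells against isotonic KCl in floxed cells had 3 genes higher and 5 lower, where 27.8% of all genes were called (12.3% higher, 15.4% lower). Acat2 had the largest difference, at 59.6, 50.6 and 58.4 CPM against 30.1, 30.8 and 37.4 CPM (0.78, SE 0.10, edgeR adjusted p = 2.8e-05). The isotonic level of Acat2 was near that of conditioned medium alone, 34.4 to 35.5 CPM. Ggps1 (0.54) and Insig1 (0.22) were also higher, while Hsd17b7 (−0.76), Nsdhl (−0.72), Mvk (−0.64), Pmvk (−0.59) and Sqle (−0.33) were lower. Hsd17b7 stood at 17.3 to 18.4 CPM against 38.6, 22.3 and 28.9 CPM, with no overlap, and Nsdhl at 9.74, 9.45 and 14.3 CPM against 25.2, 13.2 and 16.7 CPM, with overlap. The calls on Nsdhl (0.0963 to 0.125 without KCl 1, KCl 2 or floxed 1), Insig1 (0.0543 to 0.11 without KCl 1, floxed 1 or floxed 3) and Mvk (0.0682 without floxed 3) were lost on leaving out single libraries.

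Other genes of sterol and lipid handling, in 5 lists, were read in the same fits. Their counts stand against 53.5% of all genes called in conditioned medium, 53.9% with KCl, 28.7% with NaCl and 31.6% between the salts. Several lie near these shares, such as 6 of 12 isoprenoid genes in conditioned medium and 3 of 12 fatty acid genes with NaCl. Of 14 genes of SREBP processing and sterol-regulated degradation, 8 rose and 1 fell in conditioned medium, led by the ubiquitin ligase Rnf145 (1.48), with the site-2 protease Mbtps2 (0.49) and Srebf1 (0.33). With KCl 2 rose and 8 fell, with Erlin1 (−0.70), Erlin2 (−0.40) and the site-1 protease Mbtps1 (−0.82) lower and Pgrmc1 (0.49) higher. With NaCl 1 rose and 2 fell: Rnf139 (0.44), Erlin1 (−0.33) and Erlin2 (−0.32). Their medians were 0.26, −0.27 and −0.07.

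The fatty acid arm of SREBP (12 genes) divided in conditioned medium, with 5 higher and 5 lower: the acetyl-CoA synthetase Acss2 (2.33) and the desaturase Scd2 (0.55) rose and the desaturase Fads1 (−1.31) and Lpin1 (−2.52) fell. With KCl 2 rose and 4 fell, among them Scd2 (−1.07), Elovl5 (−0.63), Me1 (0.68) and Lpin1 (0.97). With NaCl 2 rose and 1 fell, Fasn (0.61), Me1 (0.42) and Scd2 (−0.39). Of 12 tested genes of the isoprenoid and dolichol branches, 4 rose and 2 fell in conditioned medium, with Coq2, of ubiquinone synthesis, at −0.78 and the prenyltransferase subunit Rabggtb at 0.77. With KCl 3 rose and 4 fell, with Coq2 at −0.92 and Rabggtb at 0.83, and with NaCl 1 rose and 3 fell, with Coq2 at −0.64 and Icmt at 0.63.

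Genes of sterol oxidation, esters and export (13) had 6 higher and 5 lower in conditioned medium. Ch25h, which makes 25-hydroxycholesterol, an oxysterol that blocks SREBP processing, stood at 1.239, 1.102 and 0.657 CPM in control and at 11.5, 10.5 and 9.13 CPM in conditioned medium (3.37, SE 0.21, edgeR adjusted p = 1e-08). Cyp27a1, which makes another oxysterol, fell (−2.62), as did the ester hydrolase Nceh1 (−1.82). With KCl 4 rose and 5 fell and with NaCl 3 rose and 3 fell. Nr1h3, the gene of the oxysterol receptor LXR alpha, stood at 163, 161 and 159 CPM in conditioned medium, at 60.2, 59.1 and 49.0 CPM with KCl (−1.53) and at 57.5 and 52.7 CPM with NaCl (−1.54). Mylip, a ubiquitin ligase of lipoprotein receptors, stood at 58.5 to 63.3 CPM without salt, 153, 138 and 166 CPM with KCl (1.31) and 173 and 188 CPM with NaCl (1.57). The sterol exporter Abcg1 rose by 1.22 with KCl and 1.00 with NaCl. Nceh1 rose by 1.27 with KCl and 0.70 with NaCl.

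Of 14 genes of lysosomal and membrane sterol transport and uptake, 5 rose and 2 fell in conditioned medium, such as the sterol transporter Gramd1a (2.17), the scavenger receptor Msr1 (1.48), Vldlr (1.305) and Lrp1 (−0.71). With KCl 4 rose and 5 fell, with the lysosomal sterol carrier Npc2 (0.80) and the scavenger receptor Cd36 (0.49) higher and Msr1 (−0.68) and Osbpl2 (−0.71) lower. With NaCl 4 rose and 1 fell, with Cd36 (0.65) and the lysosomal acid lipase Lipa (0.88) higher and Msr1 (−0.31) lower. Between the salts, KCl had 1 higher and 4 lower in the processing list, 0 and 5 in the fatty acid arm, with Scd2 at −0.68 and Acss2 at −0.72, 2 and 1 in the isoprenoid branches, 1 and 3 in oxidation, esters and export, and 2 and 3 in transport and uptake.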

How the data were processed

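The authors deposited whole-number counts for each Ensembl gene in each library, as the values show. The submitters' processing notes name DESeq2 1.30.1 without saying what it was used for. Aligner, genome build and strandedness of the counting: not given in the sources used here. Counts were tested with edgeR 4.0.16 (R 4.3.3; quasi-likelihood, robust, TMM, default low-count filter by group), without a replicate block: the 11 C57BL/6J libraries together, the 6 isotonic libraries alone, and all 17 for isotonic against C57BL/6J cells. Calls used a Benjamini-Hochberg adjusted p of 0.05 over all genes tested. The 260 identifiers without a symbol held 0.0121% of counts and were kept. Symbols, overlaps and lengths came from GENCODE M21. Libraries of 1 group differed by more than sampling noise in every pair (chi-square per degree of freedom 2.08 to 146). This spread was unequal. The value was at most 5.83 for pairs within control, conditioned medium alone or NaCl. KCl pairs gave 31.5 to 98.6, floxed pairs 27.6 to 146, knockout pairs 5.95 to 37.3. Each fit used 1 dispersion per gene for all its groups. Standard errors of the groups with wide spread thus draw on the tighter groups too. What this unequal spread did to the calls was not tested. The members and lists were chosen with earlier results of these data known. All members are accounted for; per-library values are given for the regulators and the 3 called members with the largest change in each comparison, and up to 4 called genes of each other list are named by smallest p. Per-library values of other members were chosen after they were seen. Alternatives were DESeq2 1.42.0, RLE and total-count scaling, no and stricter low-count filters (1 CPM in 3 libraries, mean of 20 counts), other fits, a replicate block, the length slope as a covariate, and leaving out each library. The fitting code was tested on simulated data.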

Additional observations from a re-analysis of the deposited data

How the results depend on the processing

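Conditioned medium against control had 23 to 27 of the 27 genes called over all alternatives run (23 to 25 leaving out single libraries), and the knockout 0 without each library in turn. With the length slope as a covariate the number called was 12 for KCl, 0 for KCl against NaCl, 1 for the knockout (Cyp51), 11 for isotonic KCl against conditioned medium and 13 for KCl against isotonic KCl. Then Cyp51 (−0.33), Msmo1 (−0.092) and Tmem97 (−0.16) turned below 0 with KCl, and Cyp51 (−0.38) and Tmem97 (−0.11) against NaCl. With only the groups compared it was 16 for NaCl, 0 for KCl against NaCl and 2 for each isotonic comparison. With all libraries in 1 fit it was 3 for KCl against NaCl. Isotonic KCl against conditioned medium gave 12 with total-count scaling and 12 with DESeq2. The cause was not tested. Leaving out single libraries gave 15 to 22 for KCl, 7 to 8 for NaCl, 4 to 16 for KCl against NaCl, 4 to 14 for isotonic KCl against conditioned medium and 6 to 12 for KCl against isotonic KCl. No count under an alternative, here, above or below, is set beside the share of all genes called in that setting. Whether the member counts only moved with that share was not tested.

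Whether a replicate number marks a shared animal or day is not stated. Deviations of same-numbered libraries correlated at 0.041 to 0.172 for conditioned medium against control and 0.044 to 0.19 for KCl, and in each other comparison at least 1 pair was below 0. The replicate block gave 27 for conditioned medium, 21 for KCl, 9 for NaCl (without Srebf2, adjusted p 0.0634), 14 for KCl against NaCl, 0 for the knockout, and 7 and 8 for the isotonic comparisons. Having 2 NaCl libraries limits the precision, and Dhcr7, Lss, Cyp51 and Nsdhl had the largest standard errors in every comparison.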
